A study of Mus musculus with 17 samples.

Results

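The endocannabinoid system genes described here are Cnr1, Dagla, Daglb, Mgll, Faah, Napepld and Abhd6, 7 genes of 36293 in the bulk files and of 37608 in the single-nucleus files, taken by their symbols. Male C57BL/6 mice (the labels' name; the study's methods give C57Bl/6J) either went through 12 days of chronic unpredictable stress (CUS), with varying stressors given each day, or served as controls, which lived in another room and had daily gentle handling. Bulk nuclear RNA-seq was made from nuclei of the medial prefrontal cortex (mPFC) of 4 control and 5 CUS mice at postnatal day 90. Single-nucleus Drop-seq (sNucDrop-seq, which counts tagged RNA molecules, or UMIs, in single nuclei) was made from the neocortex of 4 control and 4 CUS mice at postnatal day 80. The labels name no transgene and no drug. Because the groups were housed in separate rooms, CUS and room cannot be told apart.

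Endocannabinoids are lipid messengers that a neuron makes on demand, usually on the postsynaptic side, and that act backwards on the presynaptic terminal. The receptor CB1, encoded by Cnr1, sits mostly on axon terminals and lowers the release of GABA or glutamate when it is bound. The ligand 2-arachidonoylglycerol (2-AG) is made from diacylglycerol by the lipases encoded by Dagla and Daglb, and is broken down mainly by monoacylglycerol lipase (Mgll) and to a lesser extent by Abhd6. The other main ligand, anandamide, can be made by the phospholipase encoded by Napepld and is broken down by fatty acid amide hydrolase (Faah).

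The bulk libraries held 26188825 to 30525015 reads on genes. After filtering, 26698 nuclei were kept of 40000 barcodes, 1935 to 4235 per mouse, with a median of 2010 UMIs and 1274 genes; 20 barcodes were kept in more than 1 mouse, which touched 41 nuclei. The nuclei fell into 36 classes, of which 27 held over 200 nuclei each and together 97.6% of all nuclei. A class is called by a cell type with the ending "-like" where at least 3 of that type's marker genes were enriched in it and 2 were among its 10 leading genes, with no other type scoring equally, and otherwise by its 2 leading genes. The 7 genes were kept out of the genes used for clustering. Classes with markers of striatal neurons (STR_D1-like, 4.14% of nuclei, and STR_D2-like, 2.57%) were found besides the cortical ones. The Nefm/Nefl cluster had mitochondrial genes among its leading genes and a median of 1014 UMIs per nucleus, the lowest of the 27 classes.

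In bulk, all members were detected in every mouse, with between 370 reads (Napepld, lowest mouse) and 4334 reads (Cnr1, highest mouse). Nuclear RNA holds introns, so levels were compared between genes only per kilobase of the gene's span. On that scale Cnr1 (chr4:33924593-33948831, mm10, plus strand, 24.2 kb) was the highest at a median of 5.75 counts per 1000000 reads (CPM) per kb over the 9 mice. Dagla (chr19:10245265-10304877, minus strand) followed at 1.4, Faah (chr4:115967145-116017926, minus strand) at 1.25 and Mgll (chr6:88724412-88828360, plus strand) at 1.09 CPM per kb. Abhd6 (chr14:8002902-8056763, plus strand) stood at 0.948, Daglb (chr5:143464584-143505942, plus strand) at 0.78 and Napepld (chr5:21662901-21701396, minus strand) at 0.369 CPM per kb. The ranges over mice of Cnr1 (5.34 to 6.27) and of Napepld (0.342 to 0.444) did not touch those of the other genes, while Dagla (1.03 to 1.72), Faah (0.944 to 1.4) and Mgll (0.795 to 1.32) overlapped. In the nuclei, from a different piece of cortex, UMIs were not divided by span. There Cnr1 had 6146 UMIs, Faah 6314, Mgll 5810, Abhd6 5788 and Dagla 3691. Daglb overlaps 2309 bases of Rac1 on the opposite strand, and Rac1 had 1281 to 1577 reads against 743 to 1018 for Daglb itself. Mgll overlaps 1449 bases of the antisense gene Gm26588, which had 20 to 37 reads. Whether the bulk counting used the strand is not given in the sources used here, so reads in these stretches are uncertain.

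Of the members with a start region at hand, Napepld alone held the letters of the core that the zinc finger factor YY1, which the study followed, is known to bind. The letters AAGATGGC were searched on both strands in RefSeq windows (GRCm38.p6) from 250 bases before to 50 bases after each start. Such windows were at hand for 6 of the 7 genes (all but Dagla), 10 windows in all. The Napepld window (chr5:21701573-21701872, minus strand) held the letters on both strands, starting 232 and 191 bases before the start. It is printed 5′ to 3′ because of this pair, with the matches in capitals, the first as searched and the second as its reverse complement, GCCATCTT.
Napepld: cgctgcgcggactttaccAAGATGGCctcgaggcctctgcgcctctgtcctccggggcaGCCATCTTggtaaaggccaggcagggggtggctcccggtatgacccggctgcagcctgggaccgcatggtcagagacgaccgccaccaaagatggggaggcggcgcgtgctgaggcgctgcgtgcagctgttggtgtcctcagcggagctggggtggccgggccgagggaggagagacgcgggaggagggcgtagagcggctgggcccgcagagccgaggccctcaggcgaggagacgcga

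None of the 9 windows of the other 5 genes (Cnr1, Daglb, Mgll, Faah and Abhd6) held these letters, and 2.75% of all 32851 windows did. A match is a run of letters and says nothing of binding in these nuclei. Napepld itself was the member with the lowest bulk level and, as given below, with the smallest difference between CUS and control.

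The first comparison asked whether the transcripts of the receptor, of the synthetic enzymes and of the degrading enzymes differed in mPFC nuclei after CUS. Of the 7 members, 0 passed an FDR of 0.05 when p-values of edgeR's quasi-likelihood test were adjusted by Benjamini and Hochberg's method over 18394 genes, of which 606 genes (3.29% of those tested) were called (214 of them higher in CUS) and 3954 had an unadjusted p under 0.05. Among the members 1, Faah, had an unadjusted p under 0.05, and 0 passed under DESeq2 or edgeR's likelihood ratio test. Mean differences were positive for 5 members and negative for 2, with a median log2 fold change (CUS over control) of 0.12 over the members and 0.01 over all genes. The groups overlapped for all 7 members, whereas 8.76% of all genes had groups that did not.

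For the receptor, Cnr1, the 4 controls measured 141, 130, 133 and 129 CPM, scaled by edgeR's TMM factors, and the 5 CUS mice 152, 137, 146, 139 and 141 CPM. All CUS mice stood above 3 of the 4 controls, and control replicate 1 stood level with the middle of the CUS mice. The log2 fold change was 0.10 ± 0.05 (SE, adjusted p = 0.279).

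For Dagla, which encodes the main 2-AG synthase of the adult brain, the controls measured 62.3, 65.5, 103 and 61.1 CPM and the CUS mice 90.7, 74.3, 83.7, 83.7 and 90.2 CPM. Every CUS mouse was above 3 of the controls and below the remaining one, control replicate 3, so that the groups overlapped through that mouse alone. The log2 fold change was 0.21 ± 0.13 (SE, adjusted p = 0.385).

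Mgll, which removes most 2-AG, had the same order. Its controls measured 94.7, 97.8, 138 and 82.7 CPM and its CUS mice 123, 107, 122, 114 and 123 CPM. Control replicate 3 was again the highest of all 9 mice, and the log2 fold change was 0.19 ± 0.12 (SE, adjusted p = 0.379). Faah, which removes anandamide, measured 54.4, 56.1, 66.9 and 48 CPM in controls and 67.6, 59.8, 63.2, 66.4 and 71.1 CPM in CUS, with a log2 fold change of 0.22 ± 0.09 (SE, adjusted p = 0.158). Here control replicate 3 stood within the CUS range and the other 3 controls below it. Abhd6, which breaks down 2-AG on the side where it is made, measured 45.5, 46.8, 53.9 and 42.6 CPM in controls and 51.2, 46.8, 56.1, 51.8 and 51.1 CPM in CUS, with a log2 fold change of 0.12 ± 0.07 (SE, adjusted p = 0.352).

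Control replicate 3 decided the call for 3 of these genes. Without it, Dagla had a log2 fold change of 0.42 ± 0.07 (SE, adjusted p = 0.00406), Mgll of 0.35 ± 0.07 (SE, adjusted p = 0.0106) and Faah of 0.31 ± 0.07 (SE, adjusted p = 0.0205), all higher in CUS. For Dagla, Mgll and Faah the groups had overlapped through that mouse alone, so their separation without it followed from leaving it out. How many of all genes separate in this way was not counted. Calls over all genes rose as well, to 1508 of 18625 (8.1%). Leaving out any other single mouse gave adjusted p-values of 0.32 to 0.606 for Dagla, 0.33 to 0.61 for Mgll and 0.132 to 0.31 for Faah. Abhd6 (log2 fold change 0.19, adjusted p = 0.0894) and Cnr1 (0.09, adjusted p = 0.297) did not pass without control replicate 3.

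**Figure D1:**
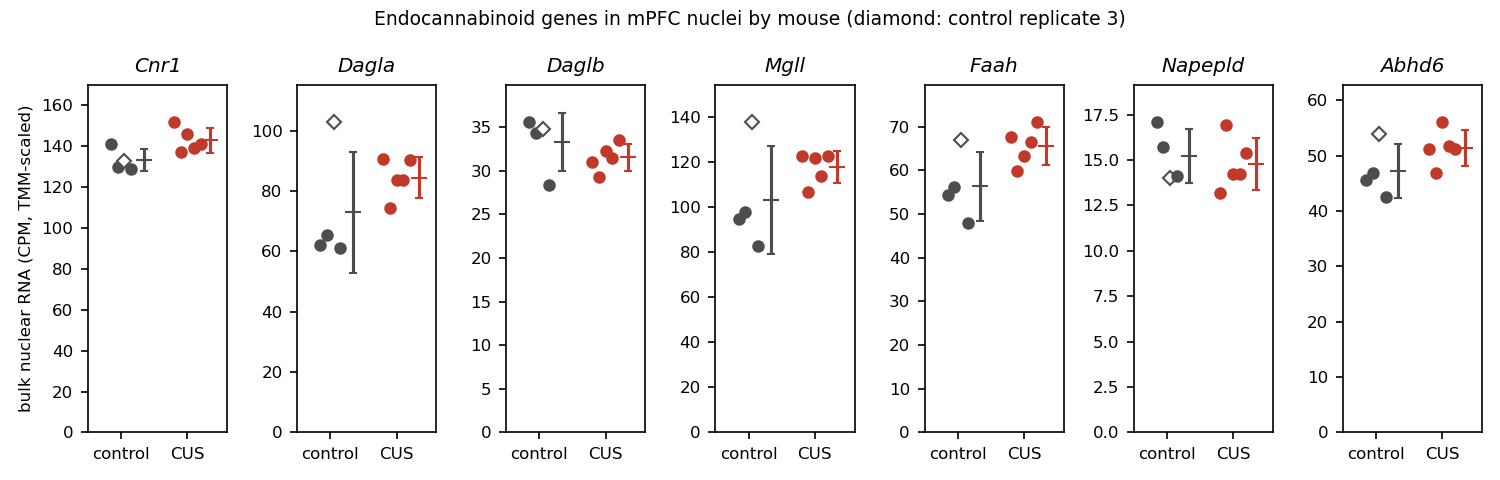
Bulk nuclear RNA-seq level of each member by mouse (y axis, CPM scaled by TMM factors, from 0; x axis, control and CUS; points are mice, bars beside them mean ± SD, n = 4 control and 5 CUS). Control replicate 3, drawn as an open diamond, measured 103 CPM for Dagla against 61.1 to 65.5 CPM in the other controls.

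Markers of cell types also moved between these mice. The 3 markers of excitatory neurons Slc17a7, Neurod6 and Camk2a summed to 517 to 876 CPM in controls and 638 to 724 CPM in CUS, and control replicate 3 held the 876. Camk2a, the kinase subunit of excitatory forebrain neurons, measured 358, 415, 661 and 336 CPM in controls and 478, 447, 509, 443 and 489 CPM in CUS, the order seen for Dagla and Mgll. Neurod6 was called higher in CUS (log2 fold change 0.46, adjusted p = 0.0119). Slc17a7, the vesicular glutamate transporter, had a log2 fold change of 0.24 (adjusted p = 0.159). The 5 oligodendrocyte markers summed to 231 to 566 CPM in controls, the highest again in control replicate 3, and to 248 to 316 CPM in CUS. The 6 astrocyte markers summed to 1313 to 1690 CPM in controls and 1257 to 1500 CPM in CUS, and 2 of them, Gja1 and Aqp4, were called lower in CUS. The 5 markers of STR_D1 neurons summed to 41.1 to 154 CPM in controls (62.1 in control replicate 3) and 35.6 to 54 CPM in CUS. The 6 markers of STR_D2 neurons summed to 39 to 159 CPM in controls (57.3 in control replicate 3) and 31.6 to 47.5 CPM in CUS. The summed levels separated the groups for 2 of the lists, both lower in CUS. Of all single genes, 8.76% had groups that did not overlap. The 3 markers of Ex_Ndst4 neurons (Ndst4, Abi3bp, Lmo3) summed to 99.3 to 251 CPM in controls and 63.3 to 83.3 CPM in CUS, with Ndst4 and Abi3bp called lower. The 4 markers of oligodendrocyte precursors summed to 93.7 to 108 CPM in controls and 83.4 to 92.6 CPM in CUS, with 0 of them called. The part of cell makeup in the members' values was not tested, and in bulk a change in the number of cells of a type cannot be told apart from a change in RNA per cell.

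The remaining 2 members, both synthetic enzymes, had small negative differences. Daglb, the diacylglycerol lipase known best from microglia and peripheral tissue, measured 35.6, 34.3, 34.8 and 28.4 CPM in controls and 31, 29.3, 32.3, 31.5 and 33.5 CPM in CUS, with a log2 fold change of -0.08 (adjusted p = 0.571). Napepld measured 17.1, 15.7, 14 and 14.1 CPM in controls and 13.2, 16.9, 14.2, 14.2 and 15.4 CPM in CUS, with a log2 fold change of -0.04 (adjusted p = 0.812). Neither order separated the groups.

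Around the members, 45 further genes of the pathway were compared by role, and 38 of them passed the filter on low counts in bulk. At an FDR of 0.05 in edgeR's quasi-likelihood test 0 of these 38 were called. Of the 38, 9 had an unadjusted p under 0.05, beside 3954 of all 18394 genes. Log2 fold changes were positive for 17 and negative for 21, with a median of -0.02 (0.01 over all genes). The smallest p-values belonged to Gnai2 and Gnai1, subunits of the inhibitory G proteins that CB1 signals through, and to Alox5, a lipoxygenase. Gnai2 measured 31.1 to 34.9 CPM in controls and 26.9 to 30.2 CPM in CUS, a log2 fold change of -0.21 ± 0.06 (SE, adjusted p = 0.0618). The groups did not overlap for Gnai2, with every CUS mouse lower. In the nuclei summed per mouse Gnai2 was under the filter and its mean went the other way. It was 39.6 CPM in controls and 45.6 CPM in CUS, with groups that overlapped. Gnai1 had a log2 fold change of -0.29 ± 0.09 (SE, adjusted p = 0.083), with groups that overlapped, and of -0.10 in the nuclei (adjusted p = 0.752 in edgeR's quasi-likelihood test). Alox5, at a low level, measured 0.411 to 0.789 CPM in controls and 0.907 to 1.13 CPM in CUS, with every CUS mouse higher and a log2 fold change of 0.67 ± 0.21 (SE, adjusted p = 0.0906). In the nuclei Alox5 was under the filter, at 0.256 to 0.387 CPM in controls and 0 to 0.449 CPM in CUS. DESeq2 called 0 of the 38 genes higher and 3 lower, Gnai2 (adjusted p = 0.0178), Gnai1 (adjusted p = 0.038) and the fatty acid carrier Fabp7 (log2 fold change -0.72, adjusted p = 0.0447), and edgeR's likelihood ratio test called 1 higher and 3 lower. Over all 18394 genes DESeq2 called 1413 and the likelihood ratio test 1330. Whether the list differs from all genes was not tested. Of the other receptors for endocannabinoids and related lipids on the list, only Ppara and Pparg passed the filter, 2 of 7 genes, and neither was called. The carriers (5 of 5 tested), the further synthetic enzymes (12 of 13), the further degrading and oxidizing enzymes (5 of 6) and the partners of CB1 (9 of 9) had 0 genes called by the quasi-likelihood test. In all nuclei summed 16 of the 45 genes were tested and 0 called by that test, by DESeq2 or by the likelihood ratio test, and 0 had an unadjusted p under 0.05, with the smallest p-values for Plcb1, a phospholipase C that yields diacylglycerol (log2 fold change -0.19, adjusted p = 0.614), and for the receptors Grm5 (-0.19, adjusted p = 0.662) and Chrm3 (-0.16, adjusted p = 0.666).

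In the neocortical nuclei summed per mouse, 5 of the 7 members passed the filter (Daglb and Napepld did not) and 0 were called at the FDR of 0.2 that the study used for nuclei. Here 1 gene of 5018 (0.0199%) was called and 402 had an unadjusted p under 0.05. The study found a strong batch effect in its nuclei and fitted it, which could not be done here. DESeq2 called 22 genes and the likelihood ratio test 17, with 0 members under either, and 0 members had an unadjusted p under 0.05. Faah measured 118, 94.5, 95 and 117 CPM in controls and 125, 129, 116 and 116 CPM in CUS, a log2 fold change of 0.20 ± 0.10 (SE, adjusted p = 0.596). CPM here counts UMIs on the tested genes. Abhd6 had 0.23 ± 0.11 (SE, adjusted p = 0.596), Dagla 0.17 ± 0.13 (SE, adjusted p = 0.663) and Mgll 0.03 ± 0.11 (SE, adjusted p = 0.934). Cnr1 measured 105, 124, 116 and 101 CPM in controls and 82.6, 104, 101 and 109 CPM in CUS, a log2 fold change of -0.18 ± 0.11 (SE, adjusted p = 0.614), against 0.10 in bulk. The groups overlapped for all 7 members, whereas 4.8% of all genes tested did not overlap. The bulk and nuclei mice differ in age, in the piece of cortex taken and in handling, since by the study's methods the bulk mice were taken a day after their last behavioral test and the nuclei mice a day after the last stressor. The difference between their values was not tested. In these nuclei the same 3 excitatory markers, summed, were higher in every CUS mouse (970 to 1129 CPM) than in every control (806 to 966 CPM). The 3 markers of the choroid plexus (Ttr, Folr1, Kl) also separated the groups, at 4.36 to 13.4 CPM in controls and 18.7 to 286 CPM in CUS. The 5 markers of STR_D1 neurons summed to 361 to 424 CPM in controls and 178 to 410 CPM in CUS. The 6 markers of STR_D2 neurons summed to 456 to 542 CPM in controls and 245 to 491 CPM in CUS. Both striatal sums overlapped between the groups. STR_D1-like nuclei held 10.4% and STR_D2-like nuclei 6.26% of the Cnr1 UMIs. The part of these cell types in the members' values was not tested.

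The nuclei showed where each member is expressed. Levels in a class are the CPM of a gene's UMIs among all UMIs of that class, as the mean ± SD over the 8 mice. They describe the classes, with no test. Some RNA was counted in classes that should lack it. Slc17a7, which glia lack, stood at 22.4 CPM in OPC-like nuclei (oligodendrocyte precursors), 30.7 in Oligo-like, 37.6 in Astro-like and 127 in Microglia-like nuclei. It stood at 8.97 to 25.3 CPM in 8 classes with Gad2 and at 160 to 301 CPM in 14 classes of excitatory neurons. Whether free RNA or mixed nuclei gave the UMIs outside excitatory neurons was not tested. A member's low level in a glial class can therefore be background, and so can a part of the levels in Microglia-like nuclei.

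**Figure D2:**
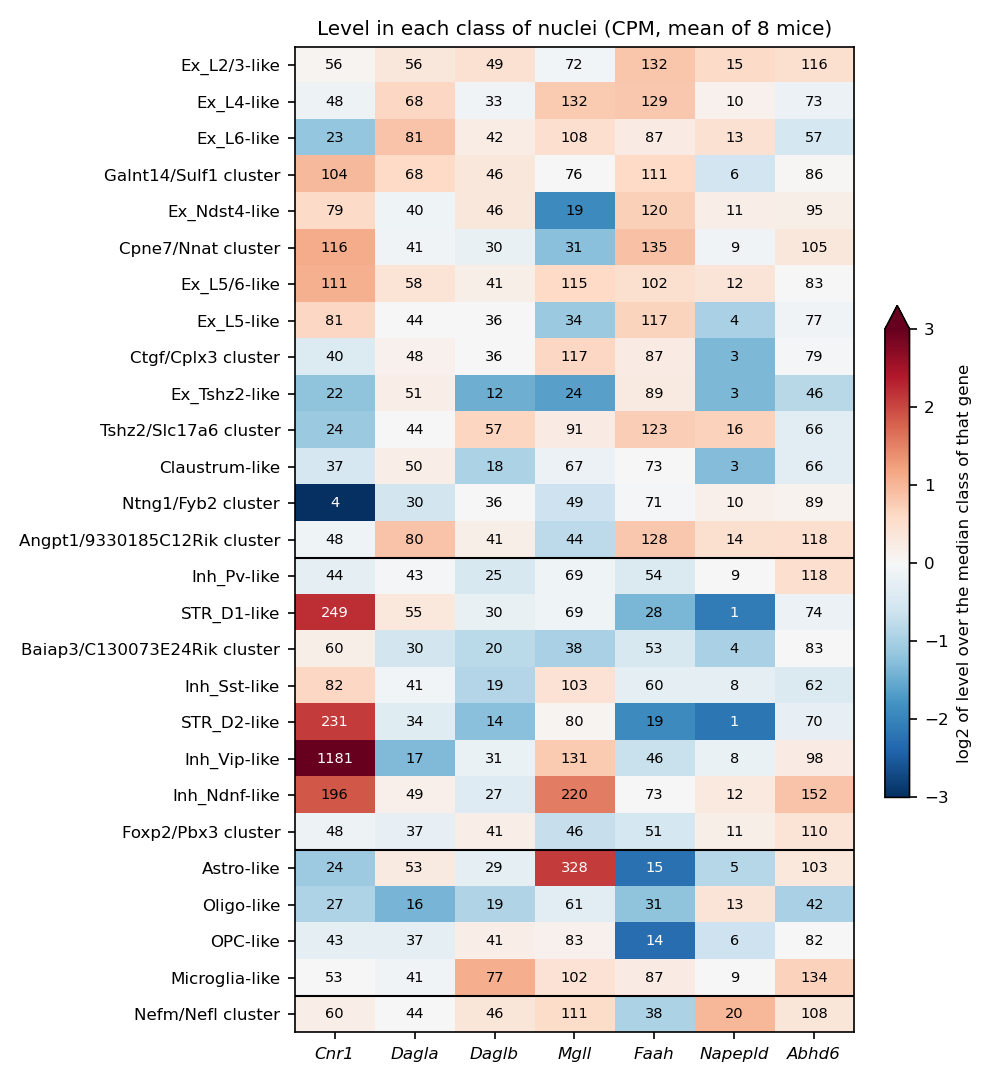
Level of each member (columns) in each of 27 classes of nuclei (rows), in CPM as the mean of 8 mice (printed numbers), with colour giving log2 of the level over that gene's median class (1 CPM added to both). Lines separate, from the top, 14 classes with Slc17a7, 8 classes with Gad2, 4 glial classes and the Nefm/Nefl cluster; Cnr1 reached 1181 CPM in the Inh_Vip-like class and Mgll 328 CPM in the Astro-like class.

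Cnr1 was by far the most uneven member. It stood at 1181 ± 222 CPM (SD, n = 8 mice) in Inh_Vip-like nuclei, interneurons marked by the peptide gene Vip, which was 22.4 times its level in the median class. The lowest of the 8 mice had 915 CPM there, the median 1236 and the highest 1436. In 8 of 8 mice this class was above STR_D1-like nuclei, the next at 249 ± 132 CPM. The class made up 1.95% of the nuclei and 1.46% of all UMIs but held 19.8% of the Cnr1 UMIs, 13.2% in the lowest mouse and 26.5% in the highest. STR_D1-like and STR_D2-like nuclei (231 ± 108 CPM), whose order held in 4 of 8 mice, did not differ beyond their spread. Inh_Ndnf-like nuclei, mostly neurogliaform interneurons of the upper cortex, followed at 196 ± 83.8 CPM and were above the next class in 8 of 8 mice. Among the excitatory classes Cnr1 ran from 116 ± 19.4 CPM in the Cpne7/Nnat cluster and 111 ± 17.5 in Ex_L5/6-like nuclei down to 23.1 ± 4.97 in Ex_L6-like nuclei and 4.39 in the Ntng1/Fyb2 cluster, where 4 UMIs were counted in all. Inh_Pv-like interneurons, the fast-spiking cells that carry little CB1, stood at 43.5 ± 15.3 CPM, the lowest mean of the 8 classes with Gad2. The Foxp2/Pbx3 cluster (47.7 ± 29.2 CPM on 28 UMIs) was above them in 5 of 8 mice only.

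Within the Inh_Vip-like class Cnr1 was higher in nuclei with a UMI of Cck, a peptide gene of the CB1-bearing basket cells. This split was chosen after the class levels were seen and is a description. Nuclei with a UMI of Cck and none of Vip (90 nuclei, 3 to 17 per mouse) had 2270 ± 538 CPM of Cnr1, with 1551 CPM in the lowest mouse and 2914 in the highest. Nuclei with Vip and without Cck (233) had 560 ± 105 CPM, 436 to 755 over the mice. The 2 ranges did not touch, and nuclei with both (112 nuclei, 1348 ± 430 CPM) lay between their means. Nuclei with neither (85 nuclei) had 840 ± 372 CPM, 145 to 1308 over the mice. Median depth was 2132 UMIs in the first and 1380 in the second set. A single Cck UMI can be free RNA: 38.8% of Inh_Vip-like nuclei had one or more (median depth 1516 UMIs), against 22.8% of Inh_Pv-like (2037 UMIs), 17.5% of Astro-like (1211 UMIs) and 14.7% of Oligo-like nuclei (1173 UMIs). Thinned to 1000 UMIs per nucleus, which left 462 of 520, 1053 of 1150, 885 of 1168 and 451 of 624 nuclei, these shares were 32.5%, 11.3%, 13.8% and 10.8%. Microglia-like nuclei had 31.3% (1660 UMIs), or 17% thinned (204 of 259 nuclei). The split can therefore place some nuclei by background. Excitatory classes also held Cck, from 12.6% of nuclei in the Ntng1/Fyb2 cluster (3170 UMIs) to 74.1% in Claustrum-like nuclei (2798 UMIs). Thinned, these 2 shares were 4.42% and 44%, so a Cck UMI alone does not mark a basket cell here. With at least 2 UMIs of Cck and none of Vip, a stricter cut also chosen after the data were seen, 66 nuclei (1 to 14 per mouse) had 2457 ± 543 CPM of Cnr1, 1671 to 3032 CPM over the mice, at a median depth of 2606 UMIs. Sncg, another marker of these basket cells, was found in the Inh_Vip-like class at 29.6 CPM and at under 1 CPM in each of the other 26.

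**Figure D3:**
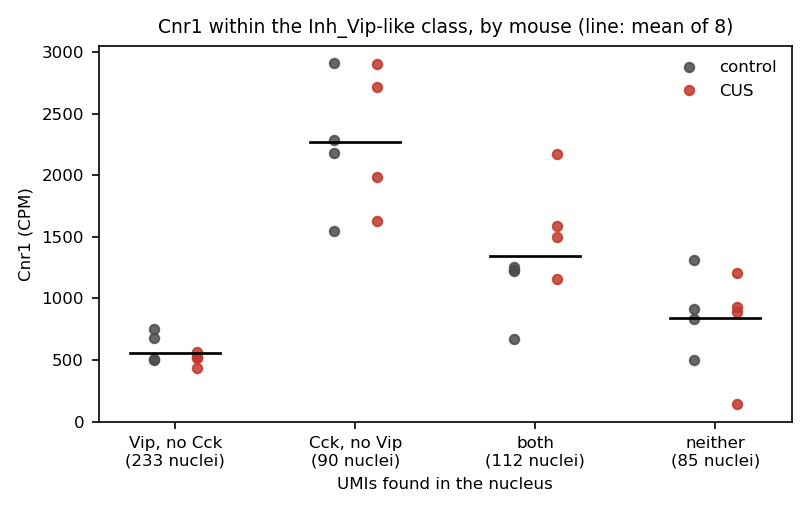
Cnr1 (y axis, CPM from 0) in the nuclei of the Inh_Vip-like class, split by whether a UMI of Vip or Cck was found (x axis), where each point is 1 mouse (grey control, red CUS) and lines are means of 8 mice. The set with Cck and no Vip sits between 1551 and 2914 CPM, above every mouse of the set with Vip and no Cck.

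Mgll was highest in Astro-like nuclei at 328 ± 61.9 CPM, between 211 and 396 CPM over the mice. This class was above Inh_Ndnf-like nuclei, at 220 ± 46.6 CPM, in 7 of 8 mice, and Inh_Ndnf-like nuclei were above Ex_L4-like nuclei (132 ± 13.9 CPM) in 8 of 8. Astro-like nuclei held 9.09% of the Mgll UMIs in 2.32% of all UMIs. Ex_L4-like and Inh_Vip-like nuclei (131 ± 37.1 CPM) stood in this order in 4 of 8 mice. The excitatory classes differed widely, from 132 CPM in Ex_L4-like, 115 ± 21.5 in Ex_L5/6-like and 108 in Ex_L6-like nuclei to 34.5 ± 20.7 in Ex_L5-like, 31.2 ± 12.8 in the Cpne7/Nnat cluster and 19.3 ± 4.72 in Ex_Ndst4-like nuclei. The Cpne7/Nnat cluster, 1 of the 3 lowest for Mgll, had the highest mean for Faah.

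**Figure D4:**
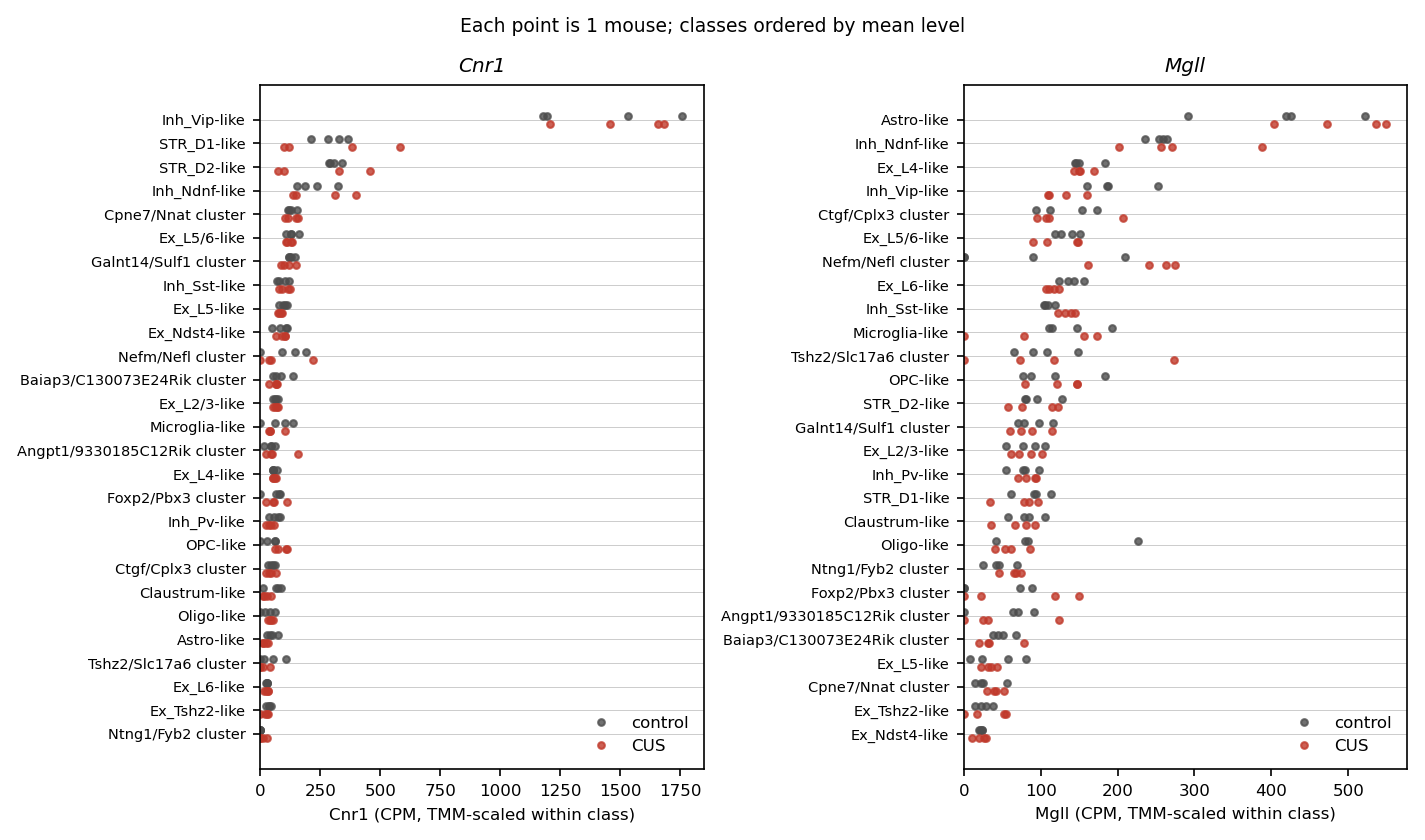
Cnr1 and Mgll in each class (y axis, ordered by mean level) by mouse (points; grey control, red CUS; x axis, CPM of UMIs on the genes tested in the class, TMM-scaled, from 0). For Cnr1 all 8 Inh_Vip-like values lie above every other class, and for Mgll the Astro-like values lie at the top with those of 1 mouse reaching into the Inh_Ndnf-like range.

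Faah was higher in most excitatory classes than in those with Gad2. The 14 excitatory classes ran from 71.1 CPM in the Ntng1/Fyb2 cluster to 135 ± 24.4 CPM in the Cpne7/Nnat cluster, with a median of 114 CPM. The 8 classes with Gad2 ran from 18.9 ± 13.7 CPM in STR_D2-like to 72.6 ± 41.9 CPM in Inh_Ndnf-like nuclei, with a median of 51.7 CPM, and the 2 ranges touched only through the Ntng1/Fyb2 cluster and Inh_Ndnf-like nuclei. Neighbours at the top could not be ordered: the Cpne7/Nnat cluster was above Ex_L2/3-like nuclei (132 ± 16.8 CPM) in 3 of 8 mice, and these above Ex_L4-like nuclei (129 ± 12 CPM) in 4. Astro-like (14.8 ± 11.3 CPM) and OPC-like nuclei (14.2 ± 7.87 CPM) were lowest, at or under the level of Slc17a7 in the same classes. Mgll and Faah thus had opposite orders in astrocytes, the first highest there and the second next to lowest of 27 classes.

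Of the synthetic enzymes, Dagla stood between 16 and 80.8 CPM in all 27 classes, highest in Ex_L6-like nuclei (80.8 ± 15.8 CPM, 55.8 to 110 over the mice), and 0 classes were above 2 times its median class of 44 CPM. The Angpt1/9330185C12Rik cluster, on 42 UMIs, was next at 80.1 ± 61 CPM, and Ex_L6-like nuclei were above it in 6 of 8 mice. Ex_L4-like nuclei had 68.2 ± 15.2 CPM and the Galnt14/Sulf1 cluster 67.6 ± 17.4 CPM. Inh_Vip-like nuclei, the class with most Cnr1, were next to lowest for Dagla at 16.9 ± 11.7 CPM from 17 UMIs, and Oligo-like nuclei lowest at 16 ± 18.3 CPM. Ex_L6-like nuclei stood the other way, with the highest Dagla and Cnr1 among its 3 lowest classes. Daglb was highest in Microglia-like nuclei at 77.4 ± 35.3 CPM, on 36 UMIs, above the next class in 7 of 8 mice. In Ex_L2/3-like nuclei, with 23.1% of its UMIs, it stood at 49.3 ± 8.27 CPM. Napepld gave 668 UMIs over all nuclei, and its levels ran from 1.31 to 19.6 CPM. The best counted class, Ex_L2/3-like, had 14.6 ± 2.91 CPM from 174 UMIs. STR_D1-like and STR_D2-like nuclei had 4 and 3 UMIs, or 1.43 and 1.31 CPM, the lowest of all classes.

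Abhd6 was expressed evenly, between 41.7 ± 16.7 CPM in Oligo-like and 152 ± 34.9 CPM in Inh_Ndnf-like nuclei. No class was under 0.5 times or over 2 times its median class of 83.2 CPM. Microglia-like nuclei, second at 134 ± 79.5 CPM, were above Inh_Pv-like nuclei (118 ± 16.9 CPM) in 3 of 8 mice only. Inh_Ndnf-like nuclei were first or second for both 2-AG hydrolases, Abhd6 and Mgll.

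Other genes of the pathway were also tied to classes. Naaa, an amidase that breaks down N-acylethanolamines, stood at 114 ± 37 CPM in Astro-like nuclei against 6.2 in the median class, and Ppara, a nuclear receptor for these lipids, at 83 ± 27.2 against 0.939. Pparg was highest in Ex_L2/3-like nuclei at 162 ± 30.9 CPM. Cnrip1, which encodes a protein that binds the tail of CB1, was highest at 435 ± 92.4 CPM in the Ntng1/Fyb2 cluster, the class where Cnr1 was lowest. Cnr2, the gene of the CB2 receptor, reached 3.99 ± 11.3 CPM at most, in Microglia-like nuclei, with 31.9 CPM in the highest mouse and 0 in the others. These genes were picked after their levels were seen.

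The genes whose class pattern was most like that of a member were found by Pearson's correlation of log2(CPM + 1) over the 27 classes, among 8093 genes with a mean of at least 20 CPM. All classes come from the same 8 mice, and depth per class is shared. Each partner was picked among the 3 highest of 8093 correlations, and none was tested. The pattern of Napepld rests on 668 UMIs. Faah had the closest partners: Sidt1 (r = 0.92), Rras2 (0.89) and Hecw1 (0.88). The nearest for Cnr1 were Gas5 (0.73), Apex1 (0.71) and Plppr3 (0.69). Dagla was nearest to Cap2 (0.72), E130311K13Rik (0.70) and Drp2 (0.70), and Mgll to Tspan7 (0.70), Sat1 (0.68) and Ccdc28b (0.64). Abhd6 was nearest to F730043M19Rik (0.71), Bphl (0.70) and BC003965 (0.69), Daglb to Rspo3 (0.67), Ext1 (0.64) and Serinc3 (0.63), and Napepld to Olfm1 (0.66), Irf2 (0.65) and Tcf4 (0.65).

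CUS was then compared with control within each class, over mice. Of 189 pairs of a member and a class, 112 had enough UMIs to be tested, and 0 passed an FDR of 0.2 over all genes of the class. Over all genes, 121 of 125456 gene and class pairs (0.0964%) did. DESeq2 and the likelihood ratio test also called 0 member pairs, and the lowest adjusted p of a member in edgeR's quasi-likelihood test was 0.356. Among the 112 pairs, 8 had an unadjusted p under 0.05, all higher in CUS. Of all gene and class pairs, 3.03% had such a p in that direction, and the share in either direction was not counted. The 8 pairs were 4 classes for Abhd6, 2 for Dagla and 1 each for Faah and Mgll. Classes come from the same 8 mice, so the pairs are not independent. Whether 8 of 112 is more than the share over all pairs was not tested. Groups did not overlap in 7 pairs of members, 3 higher and 4 lower in CUS, and in 3.33% of all pairs. Napepld could be tested in 0 classes. Of the 45 pathway genes, 434 pairs with a class were tested and 0 passed, with 23 at an unadjusted p under 0.05.

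The only pair with both an unadjusted p under 0.05 and groups that did not overlap was Abhd6 in Astro-like nuclei. Controls measured 87.5, 89.8, 99.9 and 153 CPM of the UMIs on tested genes and CUS mice 185, 164, 165 and 198 CPM. Control replicate 4 was near the CUS mice and the other 3 controls well under them. The log2 fold change was 0.76 ± 0.27 (SE, unadjusted p = 0.00712, adjusted p = 0.486 in edgeR's quasi-likelihood test). With at least 1000 genes per nucleus, which left 234 of 1168 Astro-like nuclei and 4 to 68 per mouse, it was -0.047 ± 0.68 (SE, adjusted p = 1).

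In the class with most Cnr1, its level did not separate the groups. Inh_Vip-like nuclei of controls measured 1193, 1758, 1533 and 1178 CPM of the UMIs on tested genes and those of CUS mice 1458, 1208, 1655 and 1683 CPM. The values were interleaved, with a log2 fold change of 0.07 ± 0.19 (SE, adjusted p = 0.995). Over 18 classes Cnr1 had a median log2 fold change of -0.10, from -0.85 to 0.42, and was positive in 7. In striatal classes the CUS mice spread further than the controls. STR_D1-like nuclei had 212, 363, 328 and 281 CPM of Cnr1 in controls and 121, 383, 97 and 580 CPM in CUS, so that 2 CUS mice lay under and 2 above all controls. STR_D2-like nuclei had 290, 308, 339 and 287 CPM in controls and 75.3, 329, 98.6 and 455 CPM in CUS, with the same CUS mice, replicates 1 and 3, low. The numbers of STR_D1-like nuclei were 98 to 231 in control mice and 60 to 159 in CUS mice. Those of STR_D2-like nuclei were 67 to 141 in control mice and 33 to 95 in CUS mice. These 2 classes were picked after their values were seen, and the spread was not tested.

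In Astro-like nuclei, Mgll measured 292, 419, 426 and 522 CPM of the UMIs on tested genes in controls and 549, 403, 536 and 473 CPM in CUS, with a log2 fold change of 0.23 ± 0.19 (SE, adjusted p = 0.932). The groups overlapped. Over 22 classes its median log2 fold change was 0.02 and 12 were positive. Dagla was positive in 14 of 19 classes (median 0.10), Faah in 14 of 19 (median 0.19), Abhd6 in 17 of 24 (median 0.22) and Daglb in 4 of 10 (median -0.09). The classes come from the same 8 mice, so these counts are not independent, and no member is shown to differ by them.

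**Figure D5:**
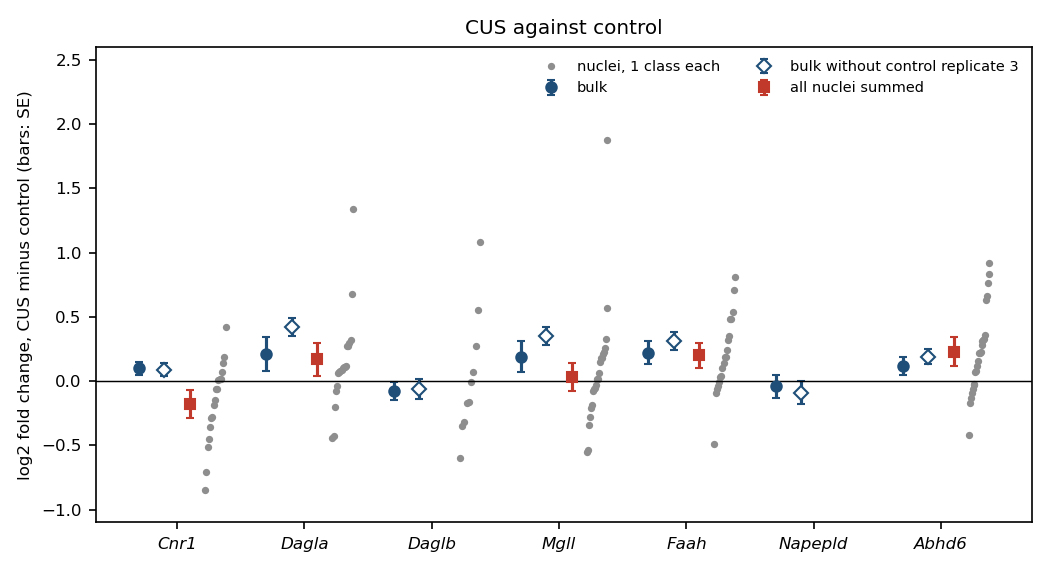
Log2 fold change of CUS over control (y axis) for each member (x axis) in bulk with and without control replicate 3, in all nuclei summed, and in each class where it was tested (small grey points, 1 per class, no error drawn); bars are SE. Without control replicate 3 the bulk value of Dagla moved from 0.21 to 0.42, and the class values of every tested member lie on both sides of 0.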

How the data were processed

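The deposited bulk files hold the authors' read counts per gene. Per the study's methods, reads from stranded total RNA libraries were aligned to mm10 with STAR and uniquely mapped reads were counted with an in-house script. The deposited nuclei files hold the authors' UMI counts per gene and barcode (5000 barcodes per mouse; mm10, exonic and intronic reads). The members and all gene lists were chosen with earlier results of these data known. Mice were grouped by the labels.

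Barcodes with 600 to 5000 genes and under 5% mitochondrial UMIs were kept, and those with a Scrublet score above 0.2 removed (4788, or 15.2%; scanpy 1.11.5, expected rate 0.1). Seurat 5.3.0 clustered nuclei on 2000 variable genes without members or listed pathway genes (50 components, 20 neighbors, resolution 1). UMIs were summed per mouse and class. edgeR 4.0.16 (R 4.3.3), with TMM factors and its quasi-likelihood test, compared CUS with control over mice, with filterByExpr in bulk at an FDR of 0.05. In nuclei the FDR was 0.2, as in the study, and a gene's summed UMIs had to exceed 10% of the nuclei. No batch term was used. The study ran nuclei in batches, reported a strong batch effect and fitted it, but the batch of each mouse is not given in the sources used here. A difference in nuclei that is hidden by batch cannot be told from none. The tests were checked on simulated data. Replicates differed by more than sampling noise (pairs of one group: chi-square over its degrees of freedom from 3.04 to 26.9 in bulk and from 2.91 to 15.8 in nuclei).

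Named were all members, listed pathway genes past the FDR or else the 3 with the smallest p, the 3 genes most alike, and pairs of member and class past the FDR or with groups that did not overlap and an unadjusted p under 0.05. Other tests, normalizations, filters and resolutions (DESeq2 1.42.0 among them) were tried. One listed pathway gene and one listed excitatory marker are not reported here.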

Additional observations from a re-analysis of the deposited data

Results flagged for a closer look

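Dagla in control replicate 3 of the bulk series measured 103 CPM and stood far above the other 3 controls (the gap to the next control was 0.895 of the range, above Dixon's 95% limit for 4 mice). It was 1 of 28 groups of mice looked at in this way, and chance flags about 1 group in 20.

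Mgll moved in opposite directions in 2 pairs of classes in which the CUS and control mice did not overlap. It was higher in CUS in Inh_Sst-like nuclei (log2 fold change 0.33) and lower in Ex_L6-like (-0.28) and Inh_Vip-like nuclei (-0.54). Faah was higher in CUS in the Tshz2/Slc17a6 cluster (0.48) and lower in the Angpt1/9330185C12Rik cluster (-0.49). The differences between these classes were not tested, and the adjusted p-values of the single classes in edgeR's quasi-likelihood test were 0.79 to 0.999.

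Inh_Vip-like nuclei of the controls measured 160, 188, 186 and 252 CPM of Mgll among UMIs on tested genes and those of the CUS mice 110, 111, 133 and 160 CPM.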

How the results depend on the processing

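Of 78 log2 fold changes of members under other tests, normalizations, filters or the replicate block, 76 kept their direction and their side of the threshold, and of 111 with a mouse left out 105 did. With at least 1000 genes per nucleus Abhd6 in Astro-like nuclei turned to -0.047 and Mgll in all nuclei to -0.032, while Cnr1 in Inh_Vip-like nuclei moved to 1411 CPM. Mgll in all nuclei also turned without CUS replicate 1 (-0.07) or control replicate 2 (-0.006), and Napepld in bulk without control replicate 1 (0.010). With a mouse left out, bulk log2 fold changes were 0.08 to 0.13 for Cnr1, 0.14 to 0.42 for Dagla, -0.14 to -0.048 for Daglb, 0.11 to 0.35 for Mgll, 0.16 to 0.31 for Faah, -0.10 to 0.010 for Napepld and 0.09 to 0.19 for Abhd6. Those of Dagla, Mgll and Faah passed the FDR only without control replicate 3. In all nuclei they were -0.23 to -0.10 for Cnr1, 0.08 to 0.27 for Dagla, -0.07 to 0.10 for Mgll, 0.15 to 0.26 for Faah and 0.14 to 0.30 for Abhd6, and for Abhd6 in Astro-like nuclei 0.64 to 0.96.

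Bulk calls over all genes numbered 606 and became 1330 under the likelihood ratio test and 1413 under DESeq2, and 133 (without control replicate 2) to 1508 (without control replicate 3) with a mouse left out. In all nuclei 1 gene was called, 17 under the likelihood ratio test, 22 under DESeq2 and 309 without the filter on low counts, and 0 to 828 (without CUS replicate 2) with a mouse left out. Without CUS replicate 2, 1 member pair passed in place of 0 (range 0 to 1), Abhd6 in Ex_L2/3-like nuclei (log2 fold change 0.37, adjusted p = 0.142 in edgeR's quasi-likelihood test). The cause of these changes was not tested.

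Replicate numbers are shared between groups. The correlations of same-numbered mice were 0.025 to 0.146 in bulk and -0.452 to 0.399 in nuclei. Differently numbered mice were not compared, so these values cannot tell whether the numbers pair the mice. The replicate block gave 238 calls in bulk and 1 in all nuclei, with 0 members in either. At resolution 0.6 no class was named Inh_Vip-like or Inh_Ndnf-like, and with at least 1000 genes the Nefm/Nefl cluster was lost, so these levels have no value there. Depth limits Napepld, with 668 UMIs, and Daglb, with 2458.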
